A study of Mus musculus with 3 samples.

Results

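The tight junction genes of lung endothelial cells (ECs) were described as 8 genes chosen by name, of the 32285 genes counted: Cldn5, Ocln, Tjp1, F11r, Jam2, Jam3, Esam and Cgnl1. Their UMIs (tags that each mark 1 captured RNA molecule) were counted in 3 single-cell libraries of 3′ RNA ends from sorted mouse lung cells. A barcode counted as an EC with 1000 to 5000 detected genes, under 20% mitochondrial UMIs and at least 2 UMIs of Pecam1 and Cdh5 together. This kept 11231 of 15660 barcodes with at least 300 genes in the control library, 10583 of 15100 in the 6 h melanoma library and 9278 of 13082 in the 30 h melanoma library. The measured levels of the 8 genes were not used to choose the cells.

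All mice were wild-type C57BL/6. Control mice received PBS into the tail vein and were taken after 6 h, and the other mice received 200000 B16-F10 cells in 100 µl and were taken after 6 h or 30 h. B16-F10 is a melanoma line from the skin of this strain that settles in the lung from the blood, and the libraries were made to follow the ECs that such cells meet first. After collagenase digestion, cells with Pecam1 and without Ptprc on their surface were sorted, and the label of the 6 h melanoma library also names melanoma cells. Each library pooled the cells of several mice (2 per treatment per the labels, 3 per the methods), with 1 library per group, so differences between libraries have no replicate check and no p-value. No PBS library from 30 h was analysed here, and the effects of melanoma, of time after injection and of the preparation cannot be told apart in the 30 h library. Those of melanoma and of the preparation cannot be told apart in the 6 h melanoma library either.

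Tight junctions seal the cleft between neighbouring ECs and limit the passage of fluid, protein and cells. Claudins form the strands that close the cleft, occludin joins them, and the junctional adhesion molecules and ESAM add adhesion that leukocytes use when they cross the vessel wall. Scaffold proteins such as ZO-1 and paracingulin tie the strands to actin beneath the membrane. Lung vessels hold general capillary cells (gCap), aerocytes (aCap, wide and thin capillary cells at the gas exchange surface), artery, vein and lymphatic cells (LEC), whose junctions differ in build.

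The promoters shown are those of Cldn5, F11r and Ocln, chosen because these genes differed most between libraries in gCap-gated cells among those with an entry in the reference table. The table, from RefSeq on build GRCm38.p6 (the assembly of mm10), held promoters of 5 of the 8 genes, each with 250 bases before and 50 bases after a transcription start. Capitals mark matches, on either strand, to CCAAT (the CCAAT box), GGGCGG (the GC box), TGANTCA (the AP-1 site), GGAAGT (the ETS site), GTAAACA (a forkhead site) and TATAAA (the TATA box).
Cldn5, chr16:18776597-18776896, plus strand: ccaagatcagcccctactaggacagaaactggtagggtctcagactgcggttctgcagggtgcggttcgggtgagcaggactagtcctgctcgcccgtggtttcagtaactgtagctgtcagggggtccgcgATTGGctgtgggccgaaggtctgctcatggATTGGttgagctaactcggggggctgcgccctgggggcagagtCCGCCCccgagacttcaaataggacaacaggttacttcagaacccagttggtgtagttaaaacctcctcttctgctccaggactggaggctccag
F11r, chr1:171437311-171437610, plus strand: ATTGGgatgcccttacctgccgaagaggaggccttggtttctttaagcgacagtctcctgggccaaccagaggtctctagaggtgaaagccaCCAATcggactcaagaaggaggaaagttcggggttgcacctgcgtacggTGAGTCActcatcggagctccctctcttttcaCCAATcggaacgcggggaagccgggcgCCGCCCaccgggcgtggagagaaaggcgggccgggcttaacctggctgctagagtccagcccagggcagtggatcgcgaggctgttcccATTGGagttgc
Ocln, chr13:100552669-100552968, minus strand: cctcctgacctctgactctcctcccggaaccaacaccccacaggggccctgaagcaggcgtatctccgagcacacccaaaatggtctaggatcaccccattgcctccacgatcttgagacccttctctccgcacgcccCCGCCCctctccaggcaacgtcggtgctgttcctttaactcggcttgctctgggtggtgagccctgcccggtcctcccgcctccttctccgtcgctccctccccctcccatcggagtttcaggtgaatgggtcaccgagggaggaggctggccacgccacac
The Cldn5 window held 2 CCAAT matches and 1 GGGCGG match. The F11r window held 4 CCAAT matches, 1 GGGCGG match and 1 TGANTCA match, and the Ocln window, 1 of 2 entries for that gene, held 1 GGGCGG match. Of all 32851 promoter windows of this length, 37.4% held CCAAT, 35.7% GGGCGG, 7.81% TGANTCA, 23.8% GGAAGT, 3.65% GTAAACA and 13.6% TATAAA. The matches overlapped no other match in these 3 windows, and they describe letters only.

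The 8 genes lie on 5 chromosomes of mm10. Cldn5 (ENSMUSG00000041378) spans chr16:18776847-18778262 on the plus strand as a single exon, Ocln chr13:100496507-100552718 on the minus strand, Tjp1 chr7:65296165-65527781 on the minus strand and F11r chr1:171437535-171464603 on the plus strand. Jam2 spans chr16:84774123-84825928 on the plus strand, Jam3 chr9:27097384-27155421 on the minus strand, Esam chr9:37528078-37538319 on the plus strand and Cgnl1 chr9:71626509-71771602 on the minus strand. Jam3 shares exon bases with Gm48796 on the opposite strand, and no other member shares exon bases with another annotated gene.

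The libraries held 124085451 to 140601123 UMIs, and the median EC had 7782 UMIs in the control, 8033 at 6 h and 8675.5 at 30 h. Levels are counts per 1000000 UMIs (CPM), the UMIs of a gene over all UMIs of the summed cells. Their 95% intervals cover counting error only. A difference is called past the fold at a ratio of at most 0.8, or at least the inverse of 0.8, with an interval that excludes 1. Pecam1 (1097 to 1237 CPM) and Cdh5 (1583 to 1788 CPM) had been used to choose the barcodes, so their levels are no check of them, and Ptprc, which the sort selected against, was at 3.16 to 6.53 CPM. RNA of other cells differed between libraries, in the order control, 6 h and 30 h: all 4 red cell genes were detected, with summed levels of 3243, 2115 and 827 CPM, all 11 epithelial markers, with 845, 616 and 387 CPM, all 6 platelet markers, with 149, 181 and 149 CPM, all 6 leukocyte markers, with 83.5, 111 and 61.7 CPM, and 7, 8 and 7 of 8 melanoma markers (Tyrp1 was at 0 in the control and at 30 h), with 23.5, 40.5 and 20.7 CPM. Leaving out barcodes with at least 2 platelet UMIs, or with at least 3 UMIs of other cell types' markers, was among 12 other ways of processing. The count of other cell types' markers did not include Sftpc, Scgb1a1 or red cell genes, so RNA of other cells remained. Under the 12 ways, Cldn5 at 30 h against control kept a log2 ratio of 0.38 to 0.49 in all ECs. F11r at 6 h kept one of 0.34 to 0.37. The EC sets of the 3 libraries shared 22 to 38 barcodes pairwise.

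Cldn5 encodes claudin-5, the main claudin of blood vessel endothelium. Its level in all ECs was 1956 CPM in the control (interval 1947 to 1965), 1996 CPM at 6 h (1987 to 2006) and 2612 CPM at 30 h (2600 to 2623). The 30 h library stood apart from the other libraries, which differed little from each other: the 30 h level was 1.34 times the control level (log2 0.42, interval 0.41 to 0.43) and 1.31 times the 6 h level, while the 6 h level was 1.02 times the control level. In cells gated as gCap by their marker genes the levels were 1812, 1832 and 2408 CPM in the order control, 6 h and 30 h. In aCap-gated cells they were 2923, 3159 and 3979 CPM. The ratio of 30 h to control was 1.33 in gCap-gated and 1.36 in aCap-gated cells. It was 0.935 in artery-gated, 0.951 in vein-gated and 0.847 in LEC-gated cells, so the higher level at 30 h was not seen in these classes. Set against each other, the gCap ratio was 1.40 times the vein ratio (counting interval 1.35 to 1.44) and 1.42 times the artery ratio (1.36 to 1.48). The gated classes come from the same 3 libraries, and without further libraries this difference between classes has no replicate check.

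**Figure D1:**
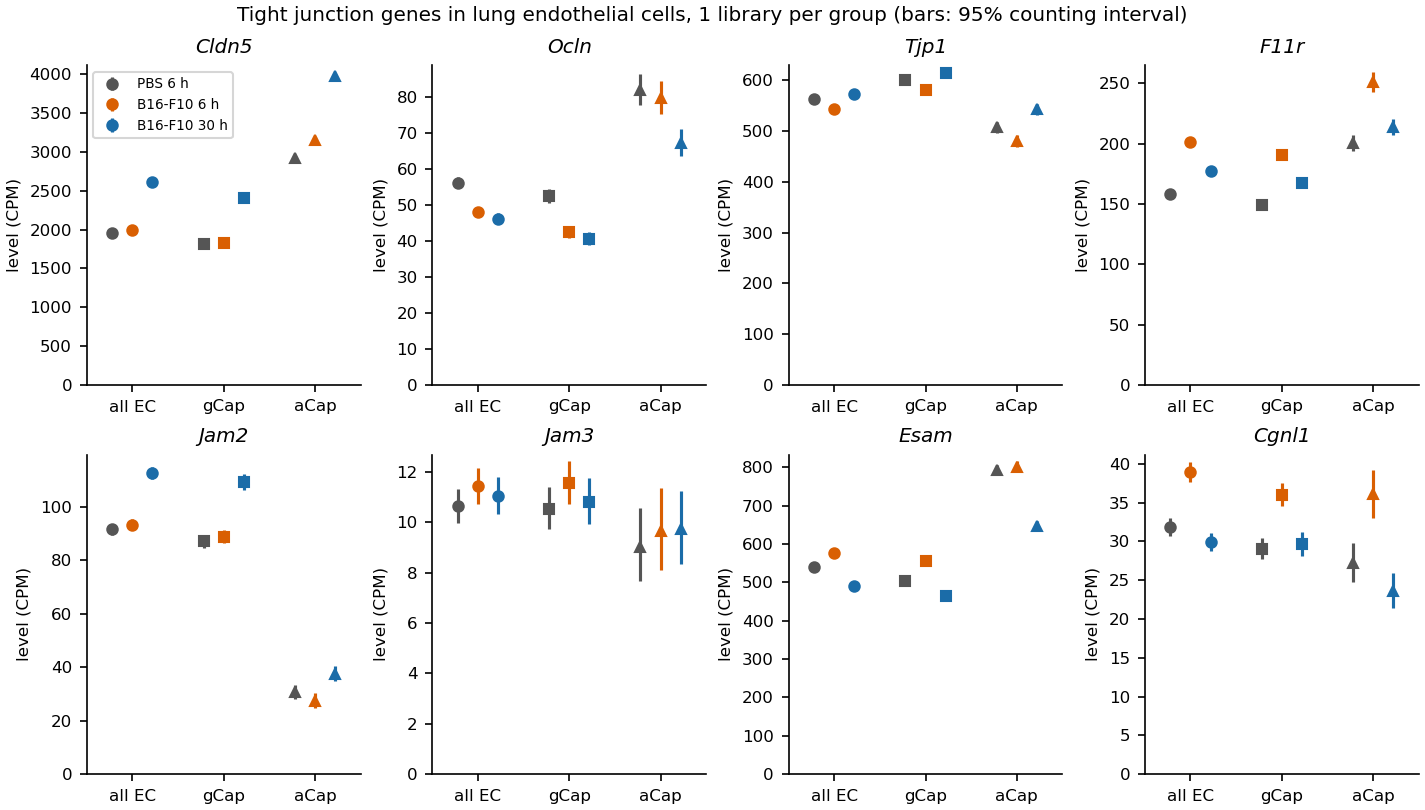
Levels (CPM) of the 8 genes in all ECs (circles), gCap-gated cells (squares) and aCap-gated cells (triangles) of the control (grey), 6 h melanoma (orange) and 30 h melanoma (blue) libraries, with 95% counting intervals as bars. Cldn5 in all ECs stood at 1956 and 1996 CPM in the 6 h libraries and at 2612 CPM at 30 h, and F11r was highest in the 6 h melanoma library in each of the 3 populations.

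The higher Cldn5 level at 30 h showed through most of the range of capillary cells. After thinning each cell to 2000 UMIs, the median gCap-gated cell had 3 Cldn5 UMIs in the control, 3 at 6 h and 4 at 30 h. At the lower quartile the counts were 2, 2 and 3 UMIs, and at the top decile 7, 7 and 9 UMIs. The share of gCap-gated cells with at least 10 Cldn5 UMIs was 1.89% in the control, 2.62% at 6 h and 7.46% at 30 h. In aCap-gated cells this share was 12.9%, 16.3% and 32.1%. Vein-gated cells had a median of 2 UMIs in each library. The variance over the mean in gCap-gated cells was 1.55, 1.73 and 1.95 in the order control, 6 h and 30 h. This value can rise with the mean, which was highest at 30 h, so the 30 h value shows no separate change in spread. The control and 6 h levels in gCap-gated cells were close, at 1812 and 1832 CPM, yet the value was higher at 6 h. Cells with 0 Cldn5 UMIs made up 5.90% in the control and 6.86% at 6 h, so the shares at both ends were larger at 6 h. The cause of this wider spread at 6 h was not tested.

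**Figure D2:**
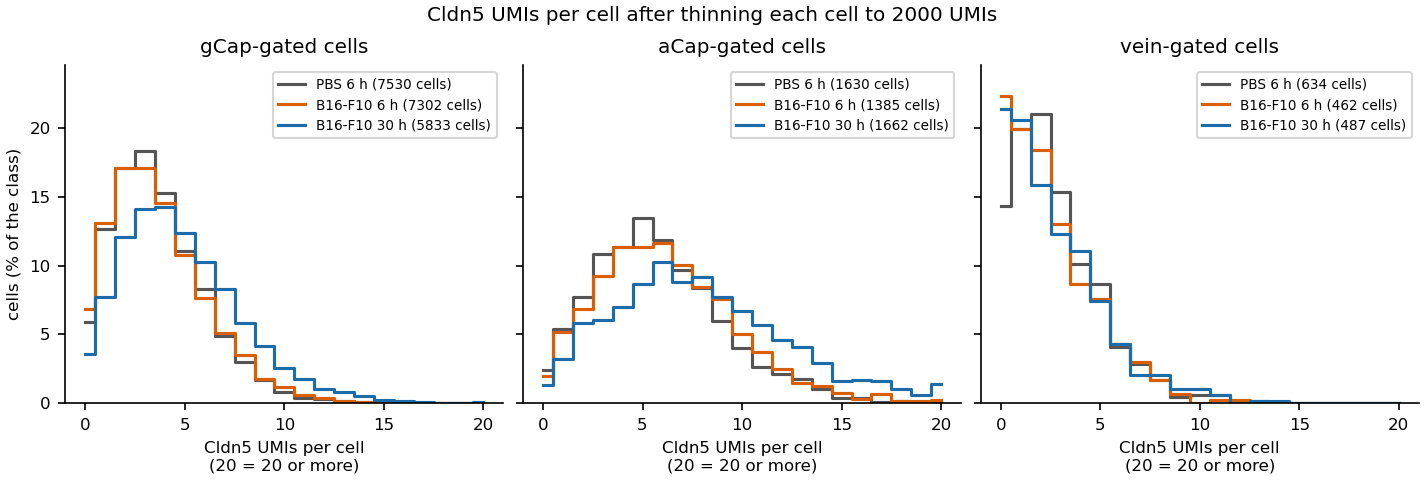
Share of cells (%) by the number of Cldn5 UMIs after thinning each cell to 2000 UMIs, in gCap-, aCap- and vein-gated cells, with 1 line per library and the last step holding cells with 20 or more. The 30 h line lies to the right of the others in gCap- and aCap-gated cells, with 7.46% and 32.1% of cells at 10 or more UMIs, and not in vein-gated cells.

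Ocln encodes occludin, a membrane protein of the tight junction strand. It was at 56.2 CPM in the control, 48.0 CPM at 6 h and 46.2 CPM at 30 h in all ECs. Both melanoma libraries were below the control, with ratios of 0.855 at 6 h and 0.821 at 30 h, and their intervals did not reach that of the control. In gCap-gated cells Ocln was at 52.5, 42.6 and 40.7 CPM, or ratios of 0.812 (log2 −0.30, interval −0.38 to −0.23) and 0.775 (log2 −0.37, interval −0.45 to −0.29). In aCap-gated cells the levels were 82.1, 79.7 and 67.3 CPM, so the 6 h level was 0.971 times the control there and the 30 h level 0.820 times. The lower level at 6 h thus lay outside counting error in gCap-gated cells and within it in aCap-gated cells. Ocln was also lower outside ECs, at 49.0, 34.6 and 32.6 CPM in empty droplets (43, 24 and 86 UMIs). The control interval there (35.5 to 66.0) overlapped those at 6 h (22.2 to 51.4) and 30 h (26.1 to 40.3). In barcodes with fewer than 2 UMIs of Pecam1 and Cdh5, Ocln was at 34.1, 14.9 and 15.3 CPM. The red cell genes fell in the same order of libraries, as given above. So did the summed markers of epithelial cells, which also carry occludin, in ECs and in empty droplets. Their sum was at 621, 573 and 286 CPM in gCap-gated cells and 18437, 8015 and 6780 CPM in empty droplets. In barcodes with fewer than 2 UMIs of Pecam1 and Cdh5 it did not follow this order, at 26189, 18585 and 49876 CPM. In aCap-gated cells, where Ocln differed little at 6 h, the same sum was at 672, 163 and 121 CPM. The epithelial gene Sftpc was not lower at 6 h in gCap-gated cells, at 232, 239 and 184 CPM. How much epithelial RNA adds to the Ocln values was not tested. Without barcodes holding at least 3 UMIs of other cell types' markers (Sftpc, Scgb1a1 and red cell genes not counted), the log2 ratio of Ocln at 6 h in gCap-gated cells was −0.28. Under the alternatives in processing, which include a subtraction of free RNA, the log2 ratio at 30 h in gCap-gated cells lay between −0.43 and −0.29.

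F11r encodes JAM-A, a junctional adhesion molecule of endothelium, epithelium, platelets and leukocytes. In all ECs it was at 158 CPM in the control, 202 CPM at 6 h and 177 CPM at 30 h. The 6 h melanoma library was highest and the 30 h library lay between. The ratio of 6 h to control was 1.27 in all ECs (log2 0.35, interval 0.32 to 0.38), and by class it was 1.28 in gCap-gated, 1.30 in artery-gated, 1.33 in vein-gated and 1.15 in LEC-gated cells. In aCap-gated cells its log2 value was 0.33. The LEC interval was the only one of the 6 that held no difference. With cells thinned to 2000 UMIs, the log2 ratio in artery-gated cells was 0.07 in place of 0.38 and so no longer past the fold limit. At 30 h the ratio to control was 1.12 in gCap-gated and 1.07 in aCap-gated cells. The summed platelet and leukocyte markers were also highest at 6 h, as given above. So were the stress genes Hspa1a, at 18.1, 91.5 and 13.3 CPM in all ECs, and Fos, at 1550, 2339 and 887 CPM, whose part in the values of F11r and of Cgnl1, which was also highest at 6 h, was not tested. Barcodes with at least 2 platelet UMIs had F11r at 1.02 times the level of the other gCap-gated barcodes at 6 h (interval 0.97 to 1.08), and without such barcodes the log2 ratio in all ECs was 0.34.

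Jam2 encodes JAM-B, a junctional adhesion molecule found mainly on endothelium. Its level in all ECs was 91.5 CPM in the control, 93.3 CPM at 6 h and 113 CPM at 30 h. As for Cldn5, the 30 h library stood apart, here at 1.23 times the control (log2 0.30, interval 0.26 to 0.34). By class the log2 ratio of 30 h to control was 0.33 in gCap-gated, 0.30 in aCap-gated, 0.49 in artery-gated and 0.32 in vein-gated cells. Unlike Cldn5, Jam2 was thus higher at 30 h in artery- and vein-gated cells too. In vein-gated cells it stood at 244 CPM in the control and 293 CPM at 6 h (log2 0.27), but this ratio was 0.01 with cells thinned to 2000 UMIs, and that at 30 h was then 0.14.

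Jam3 encodes JAM-C, a relative of JAM-B. With 10.6, 11.4 and 11.1 CPM in all ECs it rested on 967, 998 and 901 UMIs, and the intervals of its ratios between libraries held 1 in all ECs. In artery-gated cells the log2 ratio of 30 h to control was −1.04 (interval −1.90 to −0.22; 21 and 34 UMIs), but −0.33 with a stricter class gate. In vein-gated cells that of 6 h to control was 0.50 (0.01 to 1.00; 73 and 70 UMIs). Esam encodes an adhesion molecule of endothelial tight junctions and platelets. It was at 542 CPM in the control, 578 CPM at 6 h and 490 CPM at 30 h in all ECs, and at 504, 556 and 464 CPM in gCap-gated cells. The order was the same in both, with ratios to control of 1.07 at 6 h and 0.904 at 30 h in all ECs, neither past the fold. In aCap-gated cells Esam was at 792, 801 and 647 CPM, so the 30 h level was 0.817 times the control. Barcodes with platelet RNA had Esam at 0.95 to 0.97 times the level of the other gCap-gated barcodes in the 3 libraries.

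Tjp1 encodes ZO-1, the scaffold that binds claudins and occludin to actin. It differed little, at 562 CPM in the control, 542 CPM at 6 h and 573 CPM at 30 h in all ECs, and its ratios between libraries lay between 0.965 and 1.06. Cgnl1 encodes paracingulin, a cytoplasmic junction protein. It was at 31.9, 38.9 and 29.9 CPM in all ECs, highest at 6 h. Empty droplets held it at 28.5, 36.0 and 20.5 CPM (25, 25 and 54 UMIs), in the same order, and barcodes with fewer than 2 UMIs of Pecam1 and Cdh5 at 47.2, 44.7 and 59.5 CPM, above gCap-gated cells. The ratio of 6 h to control was 1.22 in all ECs (log2 0.29, interval 0.22 to 0.36), 1.24 in gCap-gated and 1.33 in aCap-gated cells. In vein-gated cells Cgnl1 was at 50.9 CPM in the control and 65.7 CPM at 6 h, and in artery-gated cells at 36.5 and 45.8 CPM. LEC-gated cells held it at 57.9 and 101 CPM (32 and 44 UMIs). In artery-gated cells its log2 ratio of 30 h to control was −0.66 (interval −1.14 to −0.17). In barcodes with platelet RNA, Cgnl1 was 1.14 to 1.20 times the level of the other gCap-gated barcodes, the only member higher in such barcodes in all 3 libraries. Over 12 other ways of processing, which include leaving those barcodes out and subtracting free RNA, the log2 ratio of Cgnl1 at 6 h in gCap-gated cells lay between 0.28 and 0.36.

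**Figure D3:**
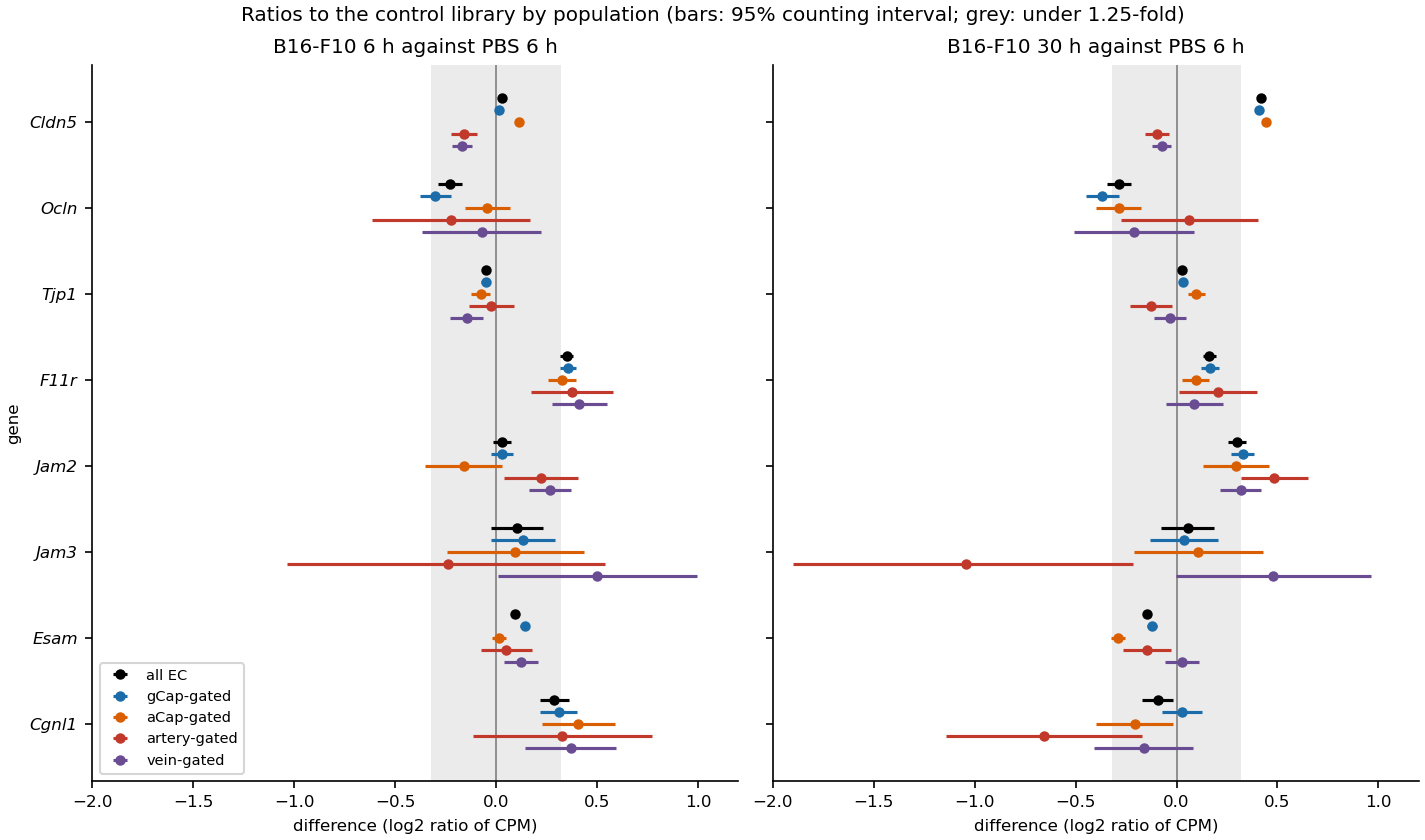
Differences (log2 ratio of CPM) of the 6 h melanoma library (left) and the 30 h melanoma library (right) from the control library for each gene, in all ECs and 4 marker-gated classes, with 95% counting intervals as bars and the range within the fold limit in grey. At 6 h the F11r points lie between 0.33 and 0.41, and at 30 h the Cldn5 points of gCap- and aCap-gated cells (0.41 and 0.44) lie apart from those of artery- and vein-gated cells (−0.10 and −0.07).

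These differences were read against those of all genes. Genes had to reach a mean of 5 CPM over the libraries, which 10175 genes did in all ECs, with all 8 members among them. In all ECs at 6 h against control 1 member was past the fold (F11r), beside 13.9% of all genes. Between 30 h and control 1 member was (Cldn5), beside 33.4%, and between 30 h and 6 h 2 were (Cldn5 higher, Cgnl1 lower), beside 31.5%. In all ECs these counts of 8 members were near or below the share of genes at large. Under other ways of processing some were above it: at 6 h 2 of 8 beside 13.6% (equal cell weight), 15.5% (thinning) and 13.0% (class shares held at the control's), and at 30 h against control 3 of 8 beside 32.7% (class shares held). Nearest to the limit among the ratios to control, F11r at 1.27 (6 h) was past it, and Jam2 at 1.23 (30 h) and Cgnl1 at 1.22 (6 h) were not. The median log2 ratio of the 8 members was 0.06 at 6 h against control, beside −0.01 over all genes, and 0.04 at 30 h against control, beside −0.07. The comparisons share libraries and are not independent of each other.

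In gCap-gated cells 1 member was past the fold at 6 h against control (F11r), beside 15.2% of genes. Between 30 h and control 3 were (Cldn5 and Jam2 higher, Ocln lower), beside 33.2%, and between 30 h and 6 h 1 was (Cldn5), beside 30.4%. In aCap-gated cells 2 were at 6 h against control (F11r and Cgnl1), beside 11%. Between 30 h and control 1 was (Cldn5), beside 39.2%, and between 30 h and 6 h 3 were (Cldn5 and Jam2 higher, Cgnl1 lower), beside 38.0%. Cldn5 at 30 h and F11r at 6 h were past the fold in both capillary classes. Some calls were lost under other ways of processing. Against control these were Ocln and Jam2 at 30 h in gCap-gated cells and F11r and Cgnl1 at 6 h in aCap-gated cells. Between 30 h and 6 h they were Cgnl1 in all ECs (log2 −0.31 with the median ratio of all genes set to 1, where Jam2 at 0.34 was past the limit instead) and, in aCap-gated cells, Cldn5 (0.32 with a stricter class gate) and Jam2 (0.30 with thinning to 2000 UMIs). In the smaller classes at 6 h against control, 3 members were higher past the fold in vein-gated, 1 in artery-gated and 1 in LEC-gated cells. Of all genes, 781 were higher and 919 lower of 10160 in vein-gated cells. The counts were 695 and 644 of 10269 in artery-gated and 492 and 478 of 10559 in LEC-gated cells.

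The members were next compared between vessel classes within each library. A cell was gated to a class with at least 4 UMIs over at least 3 of its marker genes and to no other class (gCap markers were ignored for the other 4 classes), limits that were set after the numbers of gated cells had been seen. This gave 5865 to 7593 gCap-, 1386 to 1669 aCap-, 218 to 301 artery-, 464 to 635 vein- and 54 to 67 LEC-gated cells per library, while 844 to 1064 ECs reached no class at a median depth of 2838 to 2966 UMIs. The gate is a range and not a type: of the artery-gated cells, 138, 128 and 138 stood at its limit, and artery- and vein-gated cells held a median of 19 to 23 UMIs of the gCap markers. Levels by class rest on markers other than the 8 genes. A member is counted for a class where it was past the fold against gCap-gated cells in the same direction in all 3 libraries.

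In aCap-gated cells 5 members were past this limit, beside 27.6% of all genes. Cldn5 was higher (1.61 to 1.72 times the gCap level over the 3 libraries), as were Ocln (1.56 to 1.87), F11r (1.28 to 1.34) and Esam (1.40 to 1.57), while Jam2 was lower (0.31 to 0.35). Claudin-5, occludin and ESAM transcripts thus had their highest levels of the 5 classes in aCap-gated cells, and Jam2 was lower there than in the other blood vessel classes. F11r in aCap-gated cells (200 to 251 CPM) overlapped over libraries with artery-gated cells (167 to 217 CPM), although within each library it was higher in aCap-gated cells (200 against 167, 251 against 217 and 214 against 193 CPM). Tjp1 was at 480 to 543 CPM there against 580 to 615 CPM in gCap-gated cells, with no overlap but under the limit.

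In artery-gated cells Jam2 was the 1 member past the limit, beside 10.4% of genes. It was at 210, 245 and 294 CPM in the order control, 6 h and 30 h, or 2.41 to 2.76 times the gCap level. In vein-gated cells 4 members were, beside 16.9% of genes: Jam2 was higher (2.78 to 3.30 times) and so was Cgnl1 (1.54 to 1.82), while Cldn5 (0.53 to 0.74) and Tjp1 (0.70 to 0.75) were lower. Cldn5 in vein-gated cells, at 1199 to 1347 CPM, was the lowest of the 5 classes and did not overlap with the next. Jam2 in vein-gated cells (244 to 304 CPM) and artery-gated cells (210 to 294 CPM) overlapped over libraries, although within each library it was higher in vein-gated cells. Ocln was also lower in vein-gated cells in each library (0.69, 0.81 and 0.77 times the gCap level), but at 6 h not past the limit.

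In LEC-gated cells 7 members were past the limit, beside 22.8% of genes. Lower were Esam, at 57.0 to 67.0 CPM against 464 to 556 CPM in gCap-gated cells (0.11 to 0.13 times), Tjp1 (0.39 to 0.44 times), Jam2 and Ocln. Jam2 had 4, 1 and 3 UMIs in these cells and Ocln 2, 2 and 0 UMIs. The 0 UMIs at 30 h allow a level of up to 5.51 CPM (3 counts), and the ratios for Ocln were 0.07 (interval 0.01 to 0.25) in the control and 0.11 (0.01 to 0.39) at 6 h. Higher were F11r (1.97 to 2.19 times), Jam3 (2.78 to 3.91 times, from 14 to 23 UMIs) and Cgnl1 (1.99 to 2.81 times, from 32 to 44 UMIs). Cldn5 was at 1855, 1658 and 1572 CPM in the order control, 6 h and 30 h and was not past the limit in all 3 libraries. LEC-gated cells thus held Cldn5 within the range of the blood vessel classes, more F11r and Jam3 than gCap-gated cells, and less Jam2 and Esam.

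**Figure D4:**
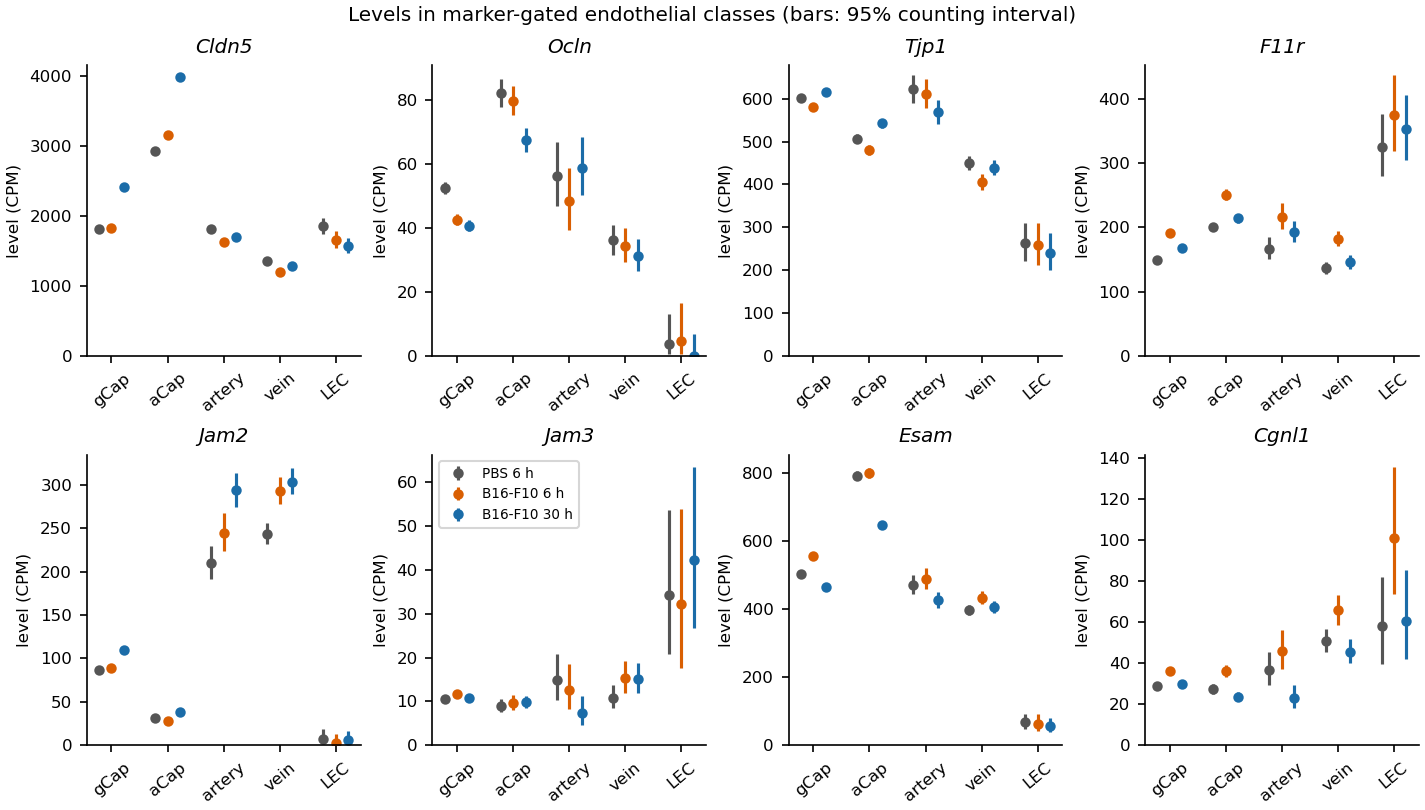
Levels (CPM) of the 8 genes in gCap-, aCap-, artery-, vein- and LEC-gated cells of the 3 libraries, with 95% counting intervals as bars. Jam2 runs from 2.30 CPM in LEC-gated to 304 CPM in vein-gated cells, Cldn5 and Esam are highest in aCap-gated cells, and F11r and Jam3 are highest in LEC-gated cells.

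After thinning to 2000 UMIs, Cldn5 was seen in 94.1% of gCap-gated cells in the control (interval 93.5 to 94.6), 93.1% at 6 h and 96.4% at 30 h. Tjp1 was seen in 66.3%, 64.7% and 66.2%, and Esam in 62.3%, 64.1% and 58.2%. F11r was seen in 25.4%, 31.0% and 27.7% of gCap-gated cells, again highest at 6 h. Jam2 was seen in 14.8%, 15.5% and 18.4%, Ocln in 10.1%, 8.01% and 7.61%, Cgnl1 in 5.03%, 6.57% and 5.62% and Jam3 in 2.12%, 2.27% and 2.07%. The median cell showed 3 of the 8 genes in each library. Barcodes with fewer than 2 UMIs of Pecam1 and Cdh5 served as a background, with median depths of 2872, 2950 and 3196 UMIs against 7607.5, 8000 and 8435 UMIs in gCap-gated cells. After the same thinning, Cldn5 was seen in 44.1%, 50.2% and 52.7%, F11r in 9.86%, 13.3% and 8.78%, Ocln in 8.92%, 3.58% and 3.41% and Cgnl1 in 6.57%, 9.32% and 11.7%. Jam3 was seen in 2.35% and 2.15% of them in the control and at 6 h and in 0 of 205 at 30 h, which allows a share of up to 1.46%. The Cgnl1 share in gCap-gated cells was lower than this background in each library, but outside its counting error only at 30 h. In the control and at 6 h the background had 213 and 279 barcodes, and the Cgnl1 and Jam3 shares were within its counting error. The background barcodes held epithelial markers at 26189, 18585 and 49876 CPM in the order control, 6 h and 30 h, so they include other cell types. Their shares can come from the RNA of those cells, so the comparison cannot decide whether single gCap-gated cells express Cgnl1 or Jam3. Ocln stood above this background at 6 h and 30 h and within its counting error in the control.

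Free RNA in empty droplets (10 to 100 UMIs) held Cldn5 at 2159, 2061 and 2435 CPM, F11r at 133, 187 and 168 CPM and Tjp1 at 295, 288 and 334 CPM, the last below its level in ECs. From the red cell genes, free RNA made up an estimated 5.19% of EC UMIs in the control, 5.23% at 6 h and 7.43% at 30 h, and 3.26%, 3.00% and 13.5% in vein-gated cells. At 30 h the estimate was 1.09% in artery-gated and 0.858% in LEC-gated cells. It thus differed widely between classes of 1 library, and the vein value is uncertain as a share of free RNA. With that share subtracted, the log2 ratios of Cldn5 and F11r named above stayed past the fold limit in all ECs and gCap-gated cells. In vein-gated cells the log2 ratio of Cldn5 at 30 h then went from −0.07 to −0.26 against control, and from 0.10 to −0.09 against 6 h. These shifts rest on the uncertain 13.5%.

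Pim3, Bcl3 and Tmem252 are among the marker genes of reactive capillary cells in the study, so the members were compared between gCap-gated cells with a UMI of each of these 3 genes and the other gCap-gated cells of the same library. There were 276 such cells in the control, 867 at 6 h and 257 at 30 h, and they were deeper than the rest (a median of 9566 against 7793 UMIs at 6 h). In the 6 h melanoma library Esam was at 647 CPM in them and at 541 CPM in the rest, or 1.20 times (interval 1.16 to 1.23), and F11r was at 208 and 188 CPM (1.11 times). Lower in them were Ocln, at 32.7 against 44.2 CPM (0.74 times, 0.65 to 0.84), Tjp1 (0.88 times) and Cldn5 (0.90 times). In the control library the same ratios were 1.06 for Esam, 1.05 for F11r, 0.82 for Ocln, 0.95 for Tjp1 and 0.92 for Cldn5. The values of these 5 members lay on the same side of 1 in all 3 libraries, although the control intervals of F11r and Tjp1 held 1. At 30 h Ocln was at 0.73 times the level of the rest. Cgnl1 had no single direction, at 1.11 times (0.89 to 1.38) in the control, 0.93 times (0.82 to 1.05) at 6 h and 1.37 times (1.11 to 1.67) at 30 h. Depth and the choice of cells by detected genes move with these values, and their part was not tested.

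Genes with the most similar level over the 15 sums of class and library were sought among the 7172 genes that averaged 20 CPM or more, by Pearson's r of log2(CPM + 1). The 15 sums share 3 libraries, so r is a description. In the LEC sums Ocln (0 to 4.60 CPM), Jam2 (2.30 to 7.24 CPM) and Esam (57.0 to 67.0 CPM) lay far below the other classes. Tjp1 (241 to 262 CPM) was also lowest there, and F11r (326 to 375 CPM) and Jam3 (32.2 to 42.3 CPM) were highest, without overlap with other classes. A high r for all these members can thus rest largely on that 1 small class, and r without it was not computed. Cldn5 was closest to Cdkn2b (r = 0.94), Ocln to Ifi208 (0.99), Tjp1 to Eml1 (0.98), F11r to Galnt1 (0.96), Jam2 to Heg1 (0.99), Esam to Nrp1 (0.99) and Cgnl1 to Etnk1 (0.91). Jam3, itself under 20 CPM on average, was closest to Ank (0.96).

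Other genes of the junction were taken from lists. Of 51 further tight junction genes 50 were in the files and 21 reached 5 CPM in all ECs. At 6 h against control none was higher and 2 were lower past the fold, Pard3 (a polarity scaffold, log2 −0.46) and Cldn18 (a claudin of alveolar epithelium, −0.35), beside 13.9% of all genes past the fold. Between 30 h and control none was higher and 6 were lower, among them Pard3 (−1.04), Cldn12 (a claudin, −0.42) and Magi3 (a membrane scaffold, −0.55), beside 33.4% of all genes. Neither count of the 21 was above the share over all genes. Pard3 went from 282 CPM in the control to 205 CPM at 6 h and 137 CPM at 30 h. Of the scaffolds among the members, Tjp1 stayed at 562, 542 and 573 CPM, and Cgnl1 was at 31.9, 38.9 and 29.9 CPM. The median over the 21 genes was −0.22 at 30 h against control, beside 0.04 for the 8 members and −0.07 for all genes.

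Of 22 adherens junction genes 21 were in the files and 18 reached 5 CPM. None was past the fold at 6 h in all ECs. At 30 h Nectin2 (log2 0.63) and Heg1 (0.40, a receptor that anchors the junction protein Krit1) were higher and Krit1 (−0.55) was lower than in the control. Heg1, the gene closest to Jam2 by class, was at 452, 425 and 598 CPM in the order control, 6 h and 30 h. Of 12 transcription factors that act on endothelial junction genes, Klf4 was higher at 6 h (log2 0.38) in all ECs. Foxo1, a known repressor of Cldn5, was lower at 30 h (−0.32, close to the fold limit) in all ECs. No other of the 12 was past the fold against control there. Whether the level of Foxo1 bears on that of Cldn5 was not tested. In all ECs the 3 of 18 adherens junction genes at 30 h and the 1 of 12 factors at each time are smaller shares than the 13.9% (6 h) and 33.4% (30 h) of all genes. In gCap-gated cells at 30 h against control, 2 of the 12 factors were higher and 2 lower, beside 33.2% of all genes. In aCap-gated cells 0 were higher and 1 lower, beside 39.2%. Of 16 adherens junction genes that reached 5 CPM, 1 was higher and 1 lower in gCap-gated cells, and 3 were higher and 3 lower in aCap-gated cells.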

How the data were processed

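UMI counts per gene and barcode were deposited by the authors as unfiltered matrices, made per the submitters' processing notes with Cell Ranger 7.2.0 on mm10. Whether intronic reads were counted is not given in the sources used here. From these counts, barcodes were kept with 1000 to 5000 genes, under 20% mitochondrial UMIs and at least 2 UMIs of Pecam1 and Cdh5. Doublets were kept; leaving out the 7.61% to 9.20% of barcodes that Scrublet, run in scanpy 1.11.5, scored highest was an alternative. UMIs were summed per library and marker-gated class and scaled to CPM. Intervals are at 95% and cover counting error only: exact Poisson for levels, exact conditional binomial for ratios, Clopper-Pearson for shares, and a normal approximation on the log scale for ratios of ratios (scipy 1.17.1). The code was tested on simulated data. With 1 library per group no test was made. All 8 members are named, and of each list at most 4 genes with the largest log2 ratio past the fold. Members and lists were chosen with earlier results of these data known. Some class markers come from the study's own cluster markers. Gene positions are from GENCODE M21, which held 32158 of the 32285 gene IDs. The study's methods name an older Cell Ranger version.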

Additional observations from a re-analysis of the deposited data

Results flagged for a closer look

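Empty droplets, which hold no cell, held F11r at 187 CPM in the 6 h melanoma library (130 UMIs) and 168 CPM in the 30 h melanoma library (443 UMIs), above the 133 CPM of the control library (117 UMIs). Jam3 in empty droplets was at 14.8 CPM at 30 h (39 UMIs) against 3.42 CPM in the control (3 UMIs). With 1 library per group neither difference was tested.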

How the results depend on the processing

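No paired analysis was possible because each group has 1 library and the comparisons come from no test. For the same reason no library could be left out. The counts and medians were recomputed under other ways of processing, and 146 of these values stayed close to the main one (counts within 1.5 times), while 17 counts rose and 14 fell by more and 5 medians moved. For all ECs at 6 h against control, the count of 1 member became 2 with each cell at the same weight, with cells thinned to 2000 UMIs or with class shares held at the control's, beside 13.6%, 15.5% and 13.0% of all genes. At 30 h against control, 1 became 2 with the median ratio of all genes set to 1, without mitochondrial and ribosomal-RNA-like genes or with equal cell weight, beside 31.5%, 32.2% and 34.9% of genes, and 3 with class shares held, beside 32.7%. In gCap-gated cells at 6 h, 1 became 2 without doublets, with the median ratio set to 1 or with equal cell weight, beside 14.9% to 15.1%, and 3 with thinning, beside 15.9%. At 30 h against 6 h there, 1 became 2 with the median ratio set to 1 or without mitochondrial and ribosomal-RNA-like genes, beside 28.9% and 29.6%. In aCap-gated cells at 6 h, 2 became 1 without doublets, with barcodes of 300 or more genes and no maximum, with equal cell weight or with free RNA subtracted. The same held without barcodes of at least 3 UMIs of other cells' markers, and the share of all genes was 10.6% to 11.7% in these settings. At 30 h against control there, 1 became 2 with the median ratio set to 1, equal cell weight or a stricter class gate, beside 36.7%, 41.1% and 38.8%, and 3 with thinning, beside 32.0%. A limit of 1.5-fold, which counted 280 to 1365 of all genes against 1084 to 3873 at the main limit, left 0 members in each comparison of all ECs, gCap- and aCap-gated cells except aCap-gated cells at 30 h against 6 h, where it left 1. The members' median log2 ratio at 30 h against control (0.041) became 0.116 with the median ratio of all genes set to 1, 0.090 with thinning and 0.00014 with free RNA subtracted. At 30 h against 6 h the median (−0.053) became 0.020 with the median ratio set to 1 and −0.093 with class shares held. The cause of these shifts was not tested.

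Cldn5 at 30 h against control kept a log2 ratio of 0.38 to 0.49 in all ECs, and F11r at 6 h one of 0.34 to 0.37, over 12 alternatives. In gCap-gated cells Ocln at 30 h ran from −0.43 to −0.29 and Jam2 from 0.31 to 0.40, so both fell inside the fold limit under some alternatives, and F11r at 6 h in aCap-gated cells ran from 0.21 to 0.34. Cgnl1 at 6 h in gCap-gated cells ran from 0.28 to 0.36. Between 30 h and 6 h the 2 members past the fold in all ECs were Cldn5 and Jam2, in place of Cldn5 and Cgnl1, with the median ratio set to 1. No member past the fold changed direction. All shares of cells with a UMI moved when cells were thinned to 1000 UMIs or left at full depth (Jam3 in gCap-gated cells of the control from 2.12% to 1.01% and 7.36%), and a subtraction of free RNA was not run for them. Depth limited Jam3, and in LEC-gated cells also Jam2 and Ocln.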
